A study of Mus musculus with 28 samples.

Results

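A group of 142 RIKEN-named genes was followed through nascent transcription in mouse embryonic stem cells (mESCs). RIKEN names, which end in Rik, were given to mouse cDNA clones before anything was known of the genes behind them. The genes were chosen by 2 criteria, a name ending in Rik and an authors' mean over the wild-type (WT) steady-state libraries above 2 RPKM, the read count scaled to gene length and library size. Of 24984 genes in each table, 1890 have such a name, and 5167 genes of any name lie above the limit. Because these measured WT values chose the genes, steady-state levels and differences are given as a description, without a test.

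Bru-seq reads nascent RNA: bromouridine (BrU) fed to living cells enters only RNA made during the pulse, and that RNA is captured and sequenced. WT and EloA null mESCs, grown on feeder fibroblasts that were removed before the assay, were labelled in 3 conditions, with 2 libraries per genotype label in every condition. In steady state, untreated cells took up BrU (2 mM) over 10 min. For recovery, cells of both genotypes were held in 1 µM flavopiridol for 60 min, washed free of it, and pulsed with the same BrU dose, over 5 min in one set and 10 min in the other. The growth protocol names the line as CCE28 for both genotypes, while the treatment protocol, the same for all libraries, names CJ7 cells. Flavopiridol inhibits the P-TEFb kinase, which releases paused RNA polymerase II into genes, so that labelling after its removal reads transcription that starts again. Elongin A (EloA) is a transcription elongation factor that also serves in a ubiquitin ligase. The paper calls its Bru-seq experiments independent, but the labels name no culture or clone behind a library, and the p-values measure the spread between these libraries, which may be partly technical.

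Library sizes recovered from the steps between RPKM values were 9857526 to 28547354 reads. The 137 of the 142 genes with recovered reads took between 0.615% and 0.934% of a library. Nascent RNA of Eloa itself was higher in every library labelled EloA null than in the WT libraries of its condition, at 1.96 and 1.89 RPKM against 1.18 and 1.16 RPKM in steady state. This count of reads over the gene does not check the null allele, and the genotype is therefore given by its label. For replicate 1 of the steady-state EloA null group, title and genotype label disagree (the latter says wild type). It was grouped by title, and it enters the denominator of every recovery ratio given for the EloA null label, so medians and counts without it are given beside the main ratios and in the closing section. All 10 markers of embryonic stem cells (such as Pou5f1 and Nanog) were above 0.5 RPKM in both steady-state groups, with a summed level of 178 to 201 RPKM. None of the 10 fibroblast, 5 primitive endoderm or 5 2-cell-like markers was above 0.5 RPKM in steady state, and the fibroblast markers summed to 1.26 to 1.69 RPKM. One of the 5 neural markers was above 0.5 RPKM in both groups, and their sum was 0.938 to 1.17 RPKM in WT and 1.44 to 1.69 RPKM in the libraries labelled EloA null. In recovery the summed fibroblast markers were lower under the EloA null label without overlap, at 0.888 to 1.21 against 1.51 to 1.73 RPKM at 5 min and 1.60 to 2.00 against 2.17 to 2.77 RPKM at 10 min. The 2-cell-like markers were also lower in both, at 0.0666 to 0.0919 against 0.282 to 0.470 RPKM at 5 min and 0.139 to 0.236 against 0.305 to 0.506 RPKM at 10 min, and the neural markers were higher, at 0.281 to 0.358 against 0.223 to 0.275 RPKM and 0.511 to 0.529 against 0.267 to 0.340 RPKM. The primitive endoderm markers were higher under the EloA null label in steady state, at 0.597 to 0.686 against 0.486 to 0.556 RPKM. At 5 min they were lower, at 0.105 to 0.115 against 0.117 to 0.158 RPKM. At 10 min they were too, at 0.219 to 0.226 against 0.235 to 0.323 RPKM. In steady state the 2-cell-like markers were lower, at 0.113 to 0.120 against 0.156 to 0.332 RPKM. The embryonic stem cell markers were lower at 10 min alone, at 261 to 265 against 267 to 300 RPKM. The part of these cell types in the label differences was not tested.

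Long noncoding RNAs (lncRNAs) are made by RNA polymerase II and mostly spliced like messenger RNAs, but code for no known protein. Many start beside a protein-coding gene and run away from it on the other strand, and some carry small nucleolar RNAs (snoRNAs) or microRNAs in their introns, which are cut out of the transcript. Other RIKEN names stand for protein-coding genes that were studied late. Bru-seq reads the making of such RNAs even where the finished RNA is short-lived.

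In the RefSeq annotation of GRCm38.p6, 82 of the 142 genes (57.7%) are lncRNAs, 56 (39.4%) are protein-coding and 4 are transcribed pseudogenes. Of the 5011 other genes above the limit that were found in RefSeq, 2.04% are lncRNAs and 88.6% are protein-coding. The RIKEN-named genes spanned a median of 9855.5 bases with 4 exons, against 20452 bases with 8 exons. A gene of the other strand overlapped 47.9% of them, against 23.9% of the others, and 29.6% had a gene starting on the other strand within 1 kb, against 21.5%. The overlap on the other strand was held by 58.5% of the lncRNAs and 33.9% of the protein-coding genes with RIKEN names, and by 56.9% and 24.3% of the other lncRNAs and protein-coding genes above the limit. These shares describe the annotation and were not tested. RefSeq has since renamed some members, such as 1810032O08Rik (Snhg16), 1810026B05Rik (Chaserr) and 4930452B06Rik (Cfap20dc), and 2 of them, A730008H23Rik and 6430706D22Rik, now belong to 1 gene, Hjurp, which encodes the chaperone that places centromeric histone.

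Promoter sequence was in the RefSeq table for 122 promoters of these genes, each covering 250 bases before the annotated start and 50 after it. The promoters of 4 genes are shown in lower case because the values below turn on their genes, with matches to a GC box (GGGCGG) or a CCAAT box (CCAAT), on either strand, in capitals. They belong to 2410006H16Rik (GRCm38.p6, chr11:62602627-62602926, plus strand), the highest member, to B230354K17Rik (chr17:45433581-45433880, plus strand), which was well above its steady state in recovery, to 1110019D14Rik (chr6:13871319-13871618, plus strand), whose window also holds the start of 2610001J05Rik on the other strand, 51 bases before its own, and to 1700095A21Rik (chr4:146546824-146547123, minus strand), which was lower in the libraries labelled EloA null.
2410006H16Rik: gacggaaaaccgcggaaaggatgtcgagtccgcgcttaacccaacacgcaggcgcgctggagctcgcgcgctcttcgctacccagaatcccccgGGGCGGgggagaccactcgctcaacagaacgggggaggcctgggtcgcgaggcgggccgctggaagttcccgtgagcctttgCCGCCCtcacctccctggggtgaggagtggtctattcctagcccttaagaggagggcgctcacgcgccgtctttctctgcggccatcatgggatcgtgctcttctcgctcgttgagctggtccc
B230354K17Rik: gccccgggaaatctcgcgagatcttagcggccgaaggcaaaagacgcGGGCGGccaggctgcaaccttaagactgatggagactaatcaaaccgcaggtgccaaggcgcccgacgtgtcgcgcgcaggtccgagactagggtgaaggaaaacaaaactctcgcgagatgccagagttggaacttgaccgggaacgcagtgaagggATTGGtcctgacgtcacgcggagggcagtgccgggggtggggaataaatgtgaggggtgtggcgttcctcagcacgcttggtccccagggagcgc
1110019D14Rik: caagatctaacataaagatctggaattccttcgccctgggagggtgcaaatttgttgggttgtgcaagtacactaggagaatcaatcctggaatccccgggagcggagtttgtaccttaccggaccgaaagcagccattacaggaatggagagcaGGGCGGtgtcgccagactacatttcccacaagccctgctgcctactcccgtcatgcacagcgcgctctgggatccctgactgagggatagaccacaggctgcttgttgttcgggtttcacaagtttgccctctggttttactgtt
1700095A21Rik: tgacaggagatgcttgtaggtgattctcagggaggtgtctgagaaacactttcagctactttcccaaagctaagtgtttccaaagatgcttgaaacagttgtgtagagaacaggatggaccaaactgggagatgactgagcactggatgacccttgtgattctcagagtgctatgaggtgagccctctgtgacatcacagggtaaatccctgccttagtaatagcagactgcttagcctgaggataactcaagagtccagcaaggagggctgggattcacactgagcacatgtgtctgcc

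The first of these promoters was rich in G and C (65.7%) and held 31 CG pairs, with GC boxes 156 and 74 bases before the start. That of B230354K17Rik held a GC box 203 bases and a CCAAT box 45 bases before the start, and that of 1110019D14Rik a GC box 95 bases before it. The promoter of 1700095A21Rik had 0 CG pairs and none of these letters. Over the 122 promoters, GGGCGG was found in 48.4%, CCAAT in 41.0%, the ETS-type motif CCGGAAG in 20.5% and the TATA box TATAAA in 8.20%. The same motifs, searched on both strands and allowed to overlap one another, were in 35.7%, 37.4%, 8.86% and 13.6% of all 32851 promoters in the table, and in 65.9%, 38.7%, 22.7% and 7.35% of the 4529 promoters of other genes above the limit. By class, GGGCGG was in 47.1% of the lncRNA promoters and 50% of the protein-coding promoters with RIKEN names. The median number of CG pairs was 19 for RIKEN-named genes, 23 for the other genes above the limit and 7 over all promoters.

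In 10 of the genes the annotation places small RNAs on the same strand. These include the hosts of Snord49a, Snord49b and Snord65 (2410006H16Rik), Snord52 (1110038B12Rik), Snord1a, Snord1b and Snord1c (Snhg16), Snord93 (2700038G22Rik), Snord88a and Snord88c (2410002F23Rik) and Snora57 (5730408K05Rik). In 4 genes the small RNA is a microRNA. MicroRNAs silence messenger RNAs through the seed, bases 2 to 8 of the mature strand. 2900076A07Rik holds Mir1839 and 6430411K18Rik holds Mir433, C430049B03Rik on chromosome X spans Mir322, Mir503 and Mir351, and E130102H24Rik on chromosome 4 spans Mir101a. Their mature sequences, from RefSeq, are shown with the seed in capitals because these 2 hosts differed in how they came back after flavopiridol.
mmu-miR-322-5p: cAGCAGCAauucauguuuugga
mmu-miR-503-5p: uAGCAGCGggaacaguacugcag
mmu-miR-351-5p: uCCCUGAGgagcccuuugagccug
mmu-miR-101a-3p: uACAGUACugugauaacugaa

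The first 2 share bases 2 to 7 and differ at base 8, while the other 2 have seeds of their own. They lie at chrX:53054306-53054327, chrX:53054027-53054049, chrX:53053315-53053338 and chr4:101346957-101346977, all on the minus strand of GRCm38.p6. The tables give the nascent RNA of the host genes and not the level of these microRNAs.

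In steady state, the 10 highest RIKEN-named genes were led by snoRNA hosts. 2410006H16Rik reached 41.2 and 36.4 RPKM in WT and 42.7 and 39.4 RPKM in the libraries labelled EloA null. 1110038B12Rik was at 29.5 and 27.3 RPKM in WT and at 37.6 and 33.0 RPKM in the libraries labelled EloA null, with no overlap. Snhg16 (1810032O08Rik) was at 28.7 and 25.4 RPKM in WT, within the range of 25.7 to 29.7 RPKM reached under the other label. These 3 lncRNAs were thus the highest of the group, and only the second of them separated the labels in steady state.

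The next genes in order were 5430416N02Rik, a lncRNA (WT mean 20.9 RPKM), and 4632427E13Rik, a lncRNA that starts 178 bases from Rab30, a small GTPase gene (19.6 RPKM). They were followed by the protein-coding gene 2410137M14Rik (18.2 RPKM), Chaserr (10.9 RPKM), 5730408K05Rik (9.89 RPKM), 2610001J05Rik (9.70 RPKM) and 1700030C10Rik (9.43 RPKM). Chaserr is a lncRNA that lowers the output of its neighbour Chd2, a chromatin remodeller gene. The WT values of neighbours in this order overlapped, except between 2410006H16Rik and 1110038B12Rik, Snhg16 and 5430416N02Rik, 2410137M14Rik and Chaserr, and Chaserr and 5730408K05Rik. 4632427E13Rik spans only 754 bases, with 30 to 60 reads per steady-state library. Its RPKM divides by its intron length, which is shorter than that span, so few reads give a high value. 1700030C10Rik, a lncRNA, was higher in every library labelled EloA null, at 12.8 and 12.7 RPKM against 10.2 and 8.63 RPKM in WT.

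**Figure D1:**
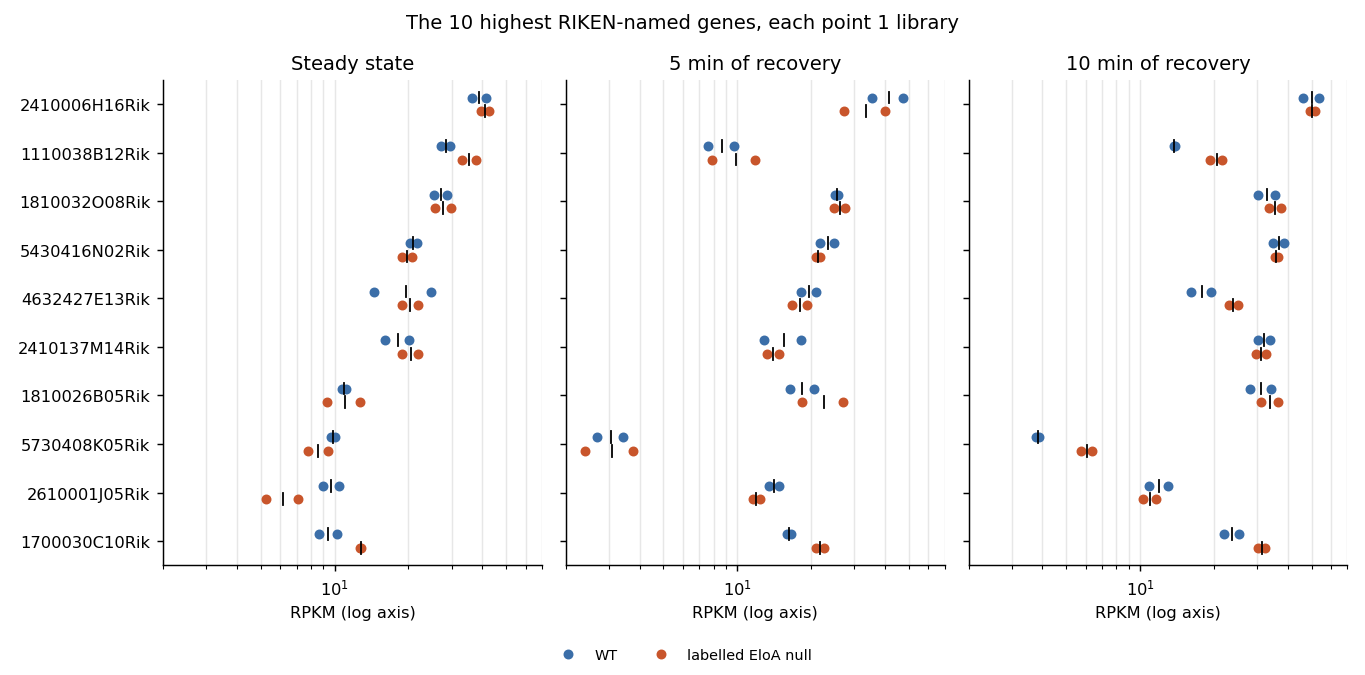
RPKM (log axis) of the 10 highest RIKEN-named genes in the 3 conditions, with 1 point per library and a black bar at the mean of each pair of libraries. 1110038B12Rik and 5730408K05Rik sat lower after flavopiridol than in steady state, and Chaserr sat higher.

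At the limit itself, 2700012I20Rik (WT mean 2.01 RPKM), 4930502E09Rik (2.02 RPKM) and 4930565N06Rik (2.03 RPKM) were the 3 genes just inside. Just outside were 1700052K11Rik (1.99 RPKM), 1700019D03Rik (1.96 RPKM) and C330007P06Rik (1.95 RPKM), and the WT values of 2700012I20Rik, 1.85 and 2.16 RPKM, span all of these means. 2700012I20Rik rests on 3 to 11 reads per steady-state library. Reads could be recovered for 137 of the 142 genes, and 133 of these had a mean of at least 20 reads per steady-state library.

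The comparison of genotypes during recovery asked whether RIKEN-named transcription came back differently in cells labelled EloA null. By limma on log2(RPKM + 0.1), 0 of the 135 members tested at 5 min and 0 of the 132 tested at 10 min passed an adjusted p of 0.05, with 14 and 23 below an unadjusted p of 0.05. The smallest adjusted p was 0.153 at 5 min and 0.0886 at 10 min. Over all genes, 0% of 8985 at 5 min and 0% of 10241 at 10 min passed, with 846 and 2098 below an unadjusted p of 0.05. The 7 members not tested at 5 min and the 10 not tested at 10 min had a mean of at most 0.5 RPKM under both labels. On simulated tables of this size the method found 38 of 50 genes changed 4-fold at 5 min and 50 of 50 at 10 min, but 1 of 50 changed 1.5-fold at either time.

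A fit of all 12 libraries, which shares 1 estimate of the spread, called 3 members higher and 3 lower at 5 min in the libraries labelled EloA null, against 2.85% and 3.07% of all genes tested. That estimate takes in the WT steady-state libraries that chose the genes and the library of conflicting labels. At 10 min it called 4 higher and 1 lower, against 1.84% and 0.742% of all genes. Counted by fold instead, 6 members were more than 1.5-fold higher without overlap at 5 min and 10 were lower, against 4.36% and 4.91% of all genes. At 10 min 11 were higher and 3 lower, against 8.43% and 2.25% of all genes. As shares of the members tested these counts are 4.44% and 7.41% at 5 min and 8.33% and 2.27% at 10 min, near the background except for the lower genes at 5 min. Among those 10, 6 had a mean of at least 20 reads. With each library centred on its median, the counts were 7 higher and 7 lower at 5 min and 9 and 4 at 10 min.

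In steady state, where the rule used the WT values, 5 members were more than 1.5-fold higher without overlap and 3 lower, beside 6.24% and 1.5% of all genes. With centring these were 4 and 4. The counts also moved with single libraries. With 1 library left in a group, the rule of no overlap is easier to meet. Shares over all genes are not given for centring or for libraries left out. At 5 min, 11 members were higher without the first WT library, while 19 were lower without the second WT library and 17 without the second library labelled EloA null.

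The median log2 difference over the members (EloA null label minus WT) was 0.019 in steady state, -0.088 at 5 min and 0.059 at 10 min, and over all genes tested it was 0.033, -0.060 and 0.059. The lncRNAs had medians of -0.066 at 5 min and 0.057 at 10 min, and the protein-coding members -0.13 and 0.083. Between either class and all genes the gap was below 0.088 at 5 min and below 0.040 at 10 min. These are the SDs between libraries of the median over all members, and no SD was worked out for the classes.

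**Figure D2:**
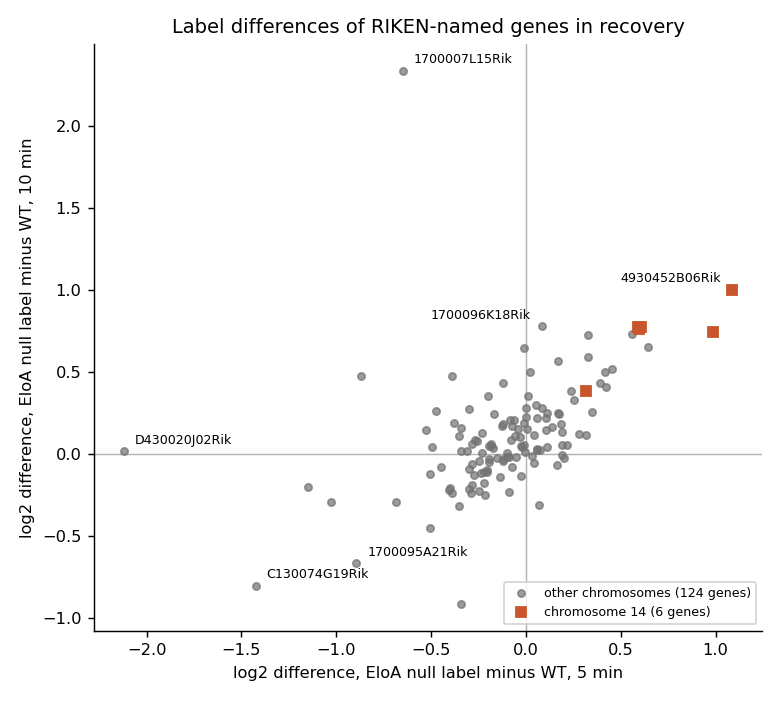
log2 difference of RPKM + 0.1 between the labels (EloA null minus WT) at 5 min (horizontal) and 10 min of recovery (vertical), 1 point per member tested at both times, with the 6 genes on chromosome 14 as squares. All 6 lie to the upper right, while D430020J02Rik and 1700007L15Rik, which stand alone, rest on few reads.

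The higher genes lay mainly on chromosome 14. All 5 members past 1.5-fold in steady state, 5 of the 6 at 5 min and 5 of the 11 at 10 min are on this chromosome, which holds 6 of the 142 genes. They were higher under the EloA null label with no overlap in steady state and at 10 min, and 5 of them at 5 min. This was not particular to RIKEN names, since of all chromosome 14 genes tested 386 of 416 were higher without overlap in steady state, 249 of 348 at 5 min and 332 of 385 at 10 min. Over all genes tested these counts were 3630 of 11347, 1384 of 8985 and 3435 of 10241. Past 1.5-fold without overlap were 40.4%, 33.9% and 41.3% of the chromosome 14 genes, against 6.24%, 4.36% and 8.43% of all genes. The median log2 differences of the chromosome 14 genes were 0.50, 0.46 and 0.51, and those of the 6 members 0.68, 0.60 and 0.77. What lies behind the difference of the chromosome was not tested. Outside chromosome 14, 0 members were more than 1.5-fold higher without overlap in steady state, 1 at 5 min and 6 at 10 min. By no overlap alone, 36 of 136 were higher in steady state, 15 of 129 at 5 min and 40 of 126 at 10 min.

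4930452B06Rik (Cfap20dc), a protein-coding gene of 235166 bases, had the largest difference upward under the EloA null label in all 3 conditions among members with at least 20 reads. In steady state it was at 2.20 and 2.15 RPKM in WT and at 4.14 and 3.76 RPKM in the libraries labelled EloA null. At 5 min the values were 3.29 and 3.16 RPKM against 6.92 and 6.99 RPKM, and at 10 min 1.65 and 1.55 RPKM against 3.15 and 3.46 RPKM. The groups stood apart at each time. The log2 difference was 1.09 ± 0.085 at 5 min and 1.00 ± 0.089 at 10 min (SE from the fit of 12 libraries, n = 2 per label), with adjusted p of 0.00151 and 0.00263 in that fit and of 0.153 and 0.0886 by limma within each table.

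4930579G18Rik is a lncRNA inside Acin1, a gene of a splicing-linked nuclear protein, on the other strand. It was at 7.81 and 8.42 RPKM in WT and 12.2 and 13.4 RPKM under the EloA null label in steady state, at 12.4 and 11.997 against 17.8 and 19.5 RPKM at 5 min, and at 11.5 and 11.8 against 19.8 and 20.1 RPKM at 10 min. The fit of 12 libraries called it at both times, with adjusted p of 0.0131 and 0.009, while limma within each table gave 0.452 and 0.0886. 1700123O20Rik, protein-coding, starts 794 bases from Acin1 and was at 3.85 and 3.18 against 6.56 and 7.50 RPKM at 5 min, with an adjusted p of 0.0255 in the fit of 12 libraries. The lncRNA 4930444M15Rik was at 12.6 and 9.64 RPKM in WT against 20.3 and 17.5 RPKM at 10 min, with an adjusted p of 0.0424 in that fit. 6230400D17Rik and 4931406H21Rik, both lncRNAs, had log2 differences of 0.76 and 0.39 at 10 min and were not called by either fit. At 5 min 6230400D17Rik had one of 0.60, which came to 0.36 when replicate 2 of the EloA null label was left out.

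One gene on another chromosome was called higher in the fit of 12 libraries. 1700096K18Rik, a lncRNA of a single exon on chromosome 5, was at 2.71 and 3.13 RPKM in WT and at 5.01 and 5.15 RPKM under the EloA null label at 10 min, with an adjusted p of 0.00973. In steady state and at 5 min its log2 differences were 0.19 and 0.08.

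**Figure D3:**
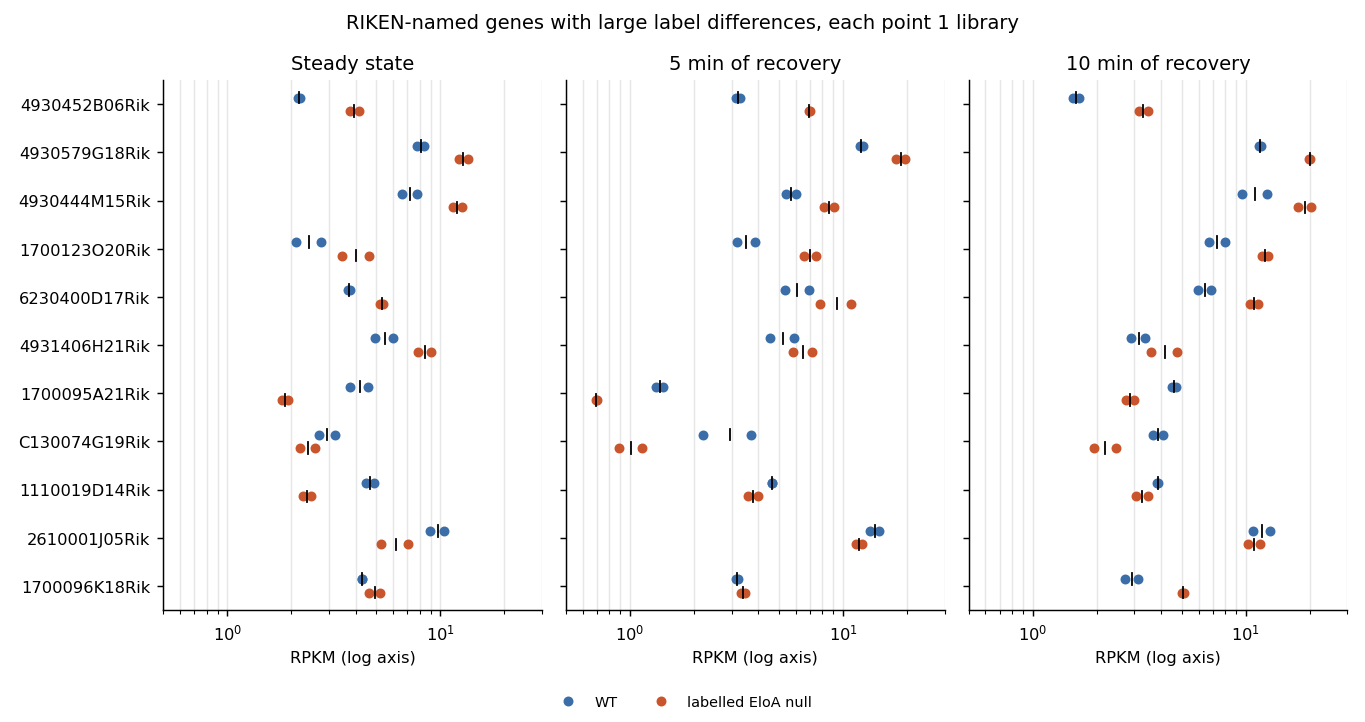
RPKM (log axis) of 11 RIKEN-named genes with large label differences in the 3 conditions, with 1 point per library and a black bar at each mean. The upper 6 genes are on chromosome 14 and sit higher under the EloA null label, with an overlap for 4931406H21Rik at 5 min, and 1700095A21Rik sits lower in every condition.

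Among the genes that were lower, 1700095A21Rik stood apart in all 3 conditions. This lncRNA of 27835 bases on chromosome 4 overlaps the zinc finger gene Zfp981 of the other strand. It was at 3.77 and 4.59 RPKM in WT and at 1.93 and 1.81 RPKM under the EloA null label in steady state. At 5 min it was at 1.44 and 1.32 against 0.702 and 0.690 RPKM, and at 10 min at 4.51 and 4.70 against 2.73 and 3.00 RPKM. The log2 differences were -0.89 and -0.67 in recovery, with adjusted p of 0.00559 and 0.0229 in the fit of 12 libraries and 0.217 and 0.100 by limma within each table.

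C130074G19Rik, protein-coding, had the largest difference downward at both recovery times among members with at least 20 reads. In steady state it was at 3.20 and 2.70 RPKM in WT and at 2.57 and 2.20 RPKM under the EloA null label. At 5 min it was at 3.71 and 2.20 against 0.884 and 1.14 RPKM, and at 10 min at 4.10 and 3.66 against 2.45 and 1.94 RPKM. The groups did not overlap at any time, but the WT libraries differed widely at 5 min. The adjusted p of the fit of 12 libraries was 0.0194 at 5 min and 0.114 at 10 min, and the log2 difference was -1.42 and -0.80. 4931406P16Rik (Garre1) was the remaining member called lower at 5 min (0.560 and 0.549 against 0.358 and 0.402 RPKM, adjusted p of 0.0321 in that fit), and is named because it completes the count.

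The protein-coding 2610001J05Rik and the lncRNA 1110019D14Rik share a promoter region on chromosome 6, and both were lower under the EloA null label in steady state. 1110019D14Rik was at 4.49 and 4.88 RPKM in WT and at 2.48 and 2.26 RPKM under the other label, a ratio of 1.98. 2610001J05Rik was at 8.97 and 10.4 RPKM against 7.07 and 5.27 RPKM, a ratio of 1.57. In recovery the difference was smaller. The log2 difference of 1110019D14Rik was -0.29 at 5 min and -0.24 at 10 min, with adjusted p of 0.660 and 0.298 by limma, and that of 2610001J05Rik -0.24 and -0.12. Under the EloA null label the 2 genes stood at 1.60 and 1.93 times steady state at 5 min. These ratios divide by the lower steady state of that label, which includes the library of conflicting labels. In WT 1110019D14Rik stood at 0.990 times at 5 min, and 2610001J05Rik went from a mean of 9.70 to 14.1 RPKM.

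Other members among the 5 largest downward differences were not called by either fit. 4930461G14Rik, a lncRNA, was at 2.91 and 2.93 against 1.90 and 1.66 RPKM at 5 min, and its steady-state values overlapped. 1700007J10Rik at 5 min had a log2 difference of -0.57 and 1700042O10Rik one of -0.51, with adjusted p of 0.656 and 0.573 by limma. Without the first WT library these were -0.28 and -0.29, and that of 1700007J10Rik was -0.87 without the second WT library and -0.31 without the second library labelled EloA null. At 10 min 1700042O10Rik had a log2 difference of -0.45, which was -0.18 without the first WT library and -0.72 without the second. At 10 min 2410141K09Rik had a log2 difference of -0.32 and B430010I23Rik one of -0.31, with adjusted p of 0.204 and 0.247 by limma. 6430411K18Rik, the host of Mir433, was at 0.646 and 0.448 against 0.343 and 0.160 RPKM at 10 min, on 6 to 16 reads, and is named because it completes the count of lower members. 4930447C04Rik, known as Six6os1 and coding for a protein of the synaptonemal complex, was at 2.19 and 2.19 against 1.69 and 1.23 RPKM in steady state and below 0.5 RPKM in every recovery library.

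By median ratio, the RPKM of the members lay below steady state at 5 min and above it at 10 min, as did that of the other genes above the limit. The median ratio to the mean of the steady-state libraries of the same label at 5 min was 0.793 and 0.688 for WT, against 0.642 and 0.674 under the EloA null label. At 10 min it was 1.31 and 1.12 in WT and 1.27 and 1.22 under the other label. The other genes above the limit had means of 0.705 and 0.657 at 5 min and 1.23 and 1.25 at 10 min, in WT and under the EloA null label. The labels overlapped at 10 min. At 5 min they did not, but without the library of conflicting labels in the denominator the EloA null ratios were 0.643 and 0.699 and overlapped WT. At 10 min they were then 1.32 and 1.23. How the tables were scaled to each other is not stated, so these ratios order the genes but do not measure how much transcription returned. The WT ratios also divide by the values that chose the genes.

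Single members ranged widely, from 0.0198 to 4.02 times steady state at 5 min and from 0.0479 to 4.19 times at 10 min in the libraries labelled EloA null. At 5 min 45 of 142 were above steady state under that label, and at 10 min 87 were. Beyond 2 times steady state lay 13 genes at 5 min and 33 at 10 min, or 18 and 39 without the library of conflicting labels. In WT the corresponding counts were 49, 85, 12 and 31.

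The lncRNAs and the protein-coding members parted at 10 min. The median ratio of the 82 lncRNAs was 1.04 and 0.899 for WT and 1.06 and 1.07 under the EloA null label, and that of the 56 protein-coding genes was 1.55 and 1.499 for WT and 1.56 and 1.62 under the other label. In all 4 libraries the protein-coding members were thus higher, while at 5 min the classes overlapped in WT. Under the EloA null label at 5 min the order was the other way without overlap, with the lncRNAs at 0.666 and 0.693 and the protein-coding members at 0.592 and 0.658. Without the library of conflicting labels these were 0.701 and 0.713 against 0.604 and 0.694, and at 10 min 1.09 and 1.06 against 1.56 and 1.62. Among the other genes above the limit the lncRNAs were also lower at 10 min, with a mean of 0.906 in WT against 1.28 for the protein-coding genes. Length was not the same in the 2 classes. Within spans of 10 to 30 kb the medians were 1.14 (27 lncRNAs) and 1.55 (26 protein-coding genes) in WT. Protein-coding genes of that span without a RIKEN name stood at 1.90 in WT (1616 genes). A gene of the other strand overlapped 58.5% of the lncRNA members and 33.9% of the protein-coding members. The parts of length and of this overlap in the order of the classes were not tested. No test was run on these medians, since genes of a library are not replicates.

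**Figure D4:**
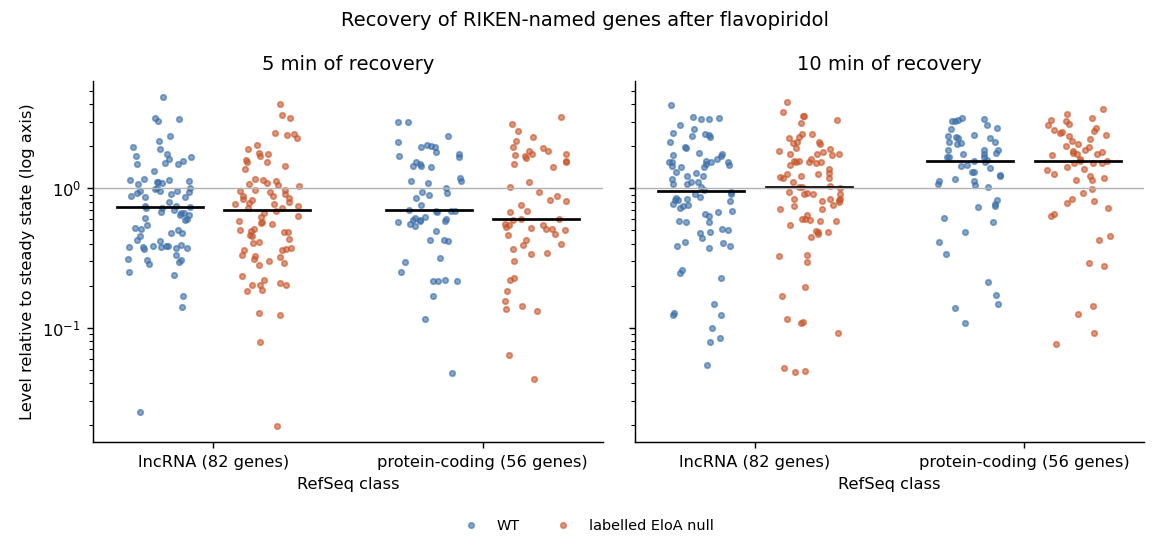
Ratio of the mean RPKM in recovery to that in steady state (log axis) for each lncRNA and protein-coding member, with WT and the EloA null label side by side and black bars at the median over genes. The protein-coding genes sit higher than the lncRNAs at 10 min.

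The genes with the highest ratios were lncRNAs and protein-coding genes of several kinds. 1500015A07Rik, a lncRNA of 1865 bases that starts 32 bases from Grpel2, a mitochondrial chaperone gene, was at 2.83 and 2.98 RPKM in WT and 3.55 and 3.20 RPKM under the EloA null label in steady state. At 5 min it was at 14.04 and 11.99 RPKM in WT and 11.7 and 15.5 RPKM under the other label, and at 10 min at 11.3, 11.7, 13.7 and 14.6 RPKM. Every recovery library was above every steady-state library, and the labels overlapped at 5 min.

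B230354K17Rik, a lncRNA that starts 124 bases from the splicing factor gene Cdc5l and whose promoter is shown above, went from 7.06 and 6.63 RPKM in WT to 20.6 and 23.1 RPKM at 5 min and 20.8 and 22.7 RPKM at 10 min. Its ratios under the EloA null label were 3.37 and 3.28. 9330020H09Rik, a lncRNA which starts 412 bases from Ccnt1, the gene of the cyclin in the kinase that flavopiridol inhibits, was at 7.64 and 7.47 RPKM in WT and at 19.4 and 28.1 RPKM at 5 min, and is named here because of that partner. The protein-coding 2410004B18Rik reached 2.87 times steady state at 5 min and 3.71 times at 10 min under the EloA null label. 4933434E20Rik, protein-coding, and 2610024D14Rik, a pseudogene inside Peli1, came to 3.42 and 3.29 times at 10 min.

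Chaserr was higher at each time, going from 10.7 and 11.1 RPKM in WT to 16.3 and 20.5 RPKM at 5 min and 28.1 and 34.3 RPKM at 10 min. The libraries labelled EloA null went from 12.7 and 9.29 RPKM to 18.3 and 26.9 RPKM and then to 31.2 and 36.4 RPKM, overlapping WT at each time. The host of miR-101a, E130102H24Rik, stood at 2.50 and 3.55 times steady state under the EloA null label. The host of miR-322, miR-503 and miR-351, C430049B03Rik, stood at 0.201 and 0.484 times. Its values at 5 min were 1.03 and 0.859 RPKM in WT and 0.305 and 0.546 RPKM under the EloA null label, on 5 to 15 reads per library, and it was not called (limma adjusted p of 0.454).

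The snoRNA hosts did not move as one. 2410006H16Rik stood at 0.819 times steady state at 5 min and 1.23 times at 10 min under the EloA null label, and Snhg16 at 0.943 and 1.29 times. 1110038B12Rik was at 0.280 and 0.580 times and 5730408K05Rik at 0.359 and 0.706 times, below their steady state in every library of both recovery times. At 10 min both of these were higher under the EloA null label without overlap, at 21.7 and 19.3 against 13.8 and 13.8 RPKM for 1110038B12Rik and at 5.74 and 6.39 against 3.87 and 3.78 RPKM for 5730408K05Rik, with adjusted p of 0.112 and 0.103 by limma.

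The 2 entries of Hjurp were low at 5 min and not at 10 min. 6430706D22Rik went from 8.90 and 8.31 RPKM in WT to 0.609 and 0.207 RPKM at 5 min and back to 8.37 and 4.56 RPKM at 10 min. A730008H23Rik was at 9.44 and 8.19 RPKM, then 2.60 and 1.85 RPKM, then 11.5 and 8.43 RPKM. The libraries labelled EloA null followed the same order, at 0.409 and 0.326 RPKM for the former and 1.91 and 1.95 RPKM for the latter at 5 min. D430020J02Rik was also low at 5 min, at 0 and 0.356 RPKM under the EloA null label, but on at most 3 reads.

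Most of the lowest ratios belonged to genes lying inside another gene. Of the 142 members, 28 lie entirely within a gene over 10 kb long that is in the tables, 25 of them on the other strand. In steady state many of the 25 were read at a density near that of their hosts. The median of the member's WT mean over the host's was 1.12, with a range of 0.462 to 3.46. For 14 of the 25 this ratio lay between 0.8 and 1.25. These WT values chose the members but not the hosts, which shaped the ratios and the correlations below. 4933416M07Rik in Rab11fip1 (2.23 against 2.22 RPKM), 6430562O15Rik in Mrps27 (3.23 against 3.16 RPKM), 0610039H22Rik in Msi2 (4.00 against 3.86 RPKM) and 1700007J10Rik in Mprip (2.63 against 2.50 RPKM) were nearly equal to their hosts. Across the 25 pairs the log2 levels of member and host had a Pearson r of 0.54 and a Spearman rho of 0.51, as a description, since both are read in the same libraries and over shared bases. The libraries were directional and reads of the strands were separated after alignment, but whether the gene counts used that separation is not stated. Whether the reads of these members include reads of their hosts was not tested. The highest ratios were 3.46 for 2310043M15Rik in Dop1b and 2.12 for 4930579G18Rik in Acin1.

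In recovery the levels of these members differed with their distance from the start of the host. Among the 16 that lie 20 to 100 kb from it, the median ratio to steady state under the EloA null label was 0.453 at 5 min and 0.247 at 10 min, and at 10 min 8 of the 16 were below 0.2 times under each label. Among the 4 that lie over 100 kb from it, the median was 2.43 at 5 min and 1.15 at 10 min, and among the 5 under 20 kb from it 0.414 and 0.801. In WT the medians were 0.543 and 0.259 for the middle class and 2.08 and 1.25 for the far class. At 5 min the highest member of the middle class, 4930579G18Rik, stood at 1.45 times under the EloA null label and the lowest of the far class, B430010I23Rik, at 1.53 times. With 1 steady-state library as the denominator these bounds were 1.39 and 1.59 (without replicate 1) or 1.53 and 1.48 (without replicate 2), so the classes overlapped in the latter case. Without replicate 1, the library of conflicting labels, the medians of the middle class were 0.479 at 5 min and 0.249 at 10 min, and those of the far class 2.46 and 1.12.

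1700047A11Rik, a lncRNA inside Hook3 and 30.1 kb from its start, had the lowest ratio at 5 min. It was at 2.59 and 2.50 RPKM in WT and 2.75 and 2.40 RPKM under the EloA null label in steady state. At 5 min it was at 0.0610, 0.0653, 0.0631 and 0.0392 RPKM, on 8 to 11 reads, and at 10 min at 0.264, 0.1398, 0.151 and 0.116 RPKM. Hook3 itself, a gene of 98.2 kb for a dynein adaptor, was at 0.710 times steady state in WT at 5 min. 4930455C13Rik, 34.6 kb into Hbs1l, was lower still with time, going from 0.126 times at 5 min to 0.0479 times at 10 min under the EloA null label, while Hbs1l stood at 0.589 and 1.17 times. 1700001D01Rik, 61.1 kb into Sh3rf1, went from 0.619 to 0.0490 times. E030018B13Rik in Klf13, 4931403G20Rik in Map4k5, 1700034J05Rik in Ppfibp1 and 1700007J10Rik in Mprip were between 0.0769 and 0.115 times at 10 min under that label. Of the 16, 12 were below their host at 10 min under the EloA null label (11 without the library of conflicting labels) and 13 in WT.

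Most of the far members were above steady state at 5 min. The exception was 4931406H21Rik, 131 kb into Zmiz1 on the same strand, at 0.953 times in WT and 0.769 times under the EloA null label. A430090L17Rik, 343 kb into Arl15, went from 2.05 and 2.07 RPKM in WT to 6.20 and 6.39 RPKM at 5 min and 2.86 and 3.02 RPKM at 10 min. D830031N03Rik lies 280 kb into the cytoskeletal gene Macf1 on the same strand. It went from 4.78 and 5.45 RPKM to 15.1 and 15.4 RPKM and then 7.66 and 8.53 RPKM, from a steady state equal to that of Macf1 (5.12 and 5.12 RPKM as WT means). 1700109K24Rik in Rbfox2 and 4933400F21Rik in Agap1, 218 and 225 kb from the host start, stood at 2.41 and 2.44 times steady state at 5 min under the EloA null label. The hosts of these 4 were at 1.67 to 3.41 times at 5 min. 4930461G14Rik, which is not inside another gene, was at 0.221 and 0.0911 times at 5 and 10 min under the EloA null label.

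**Figure D5:**
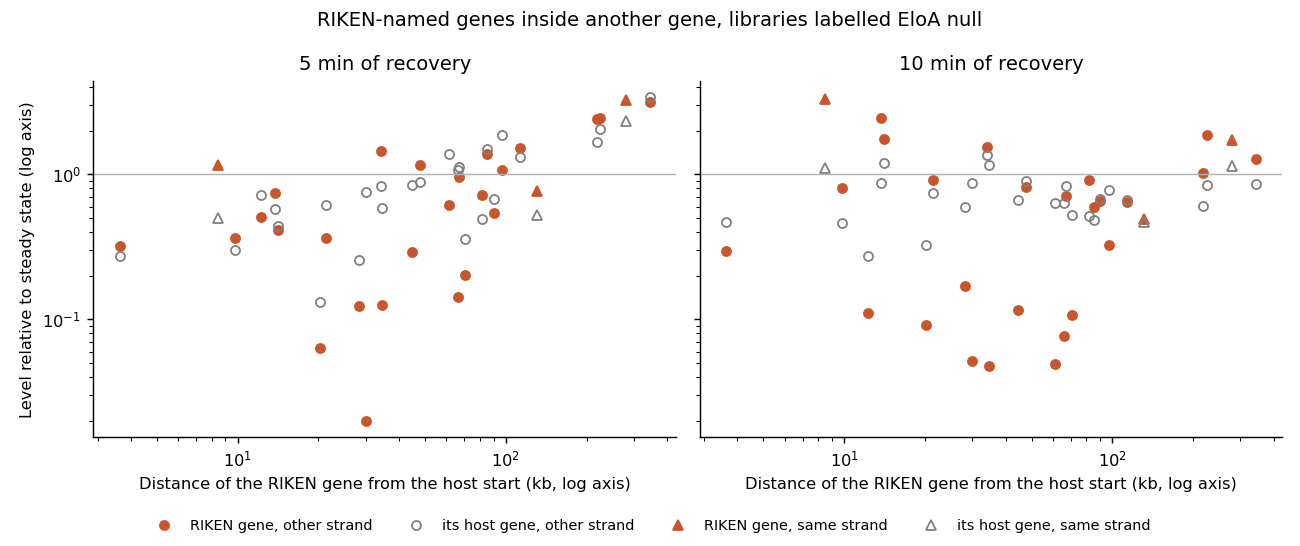
Ratio of recovery to steady state (log axis) in the libraries labelled EloA null for 28 RIKEN-named genes inside a host gene (filled) and for their hosts (open), against the distance of the member from the host start (kb, log axis). Low values gather between 20 and 100 kb, and the 4 members farthest from the start lie above 2 at 5 min.

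The members with a gene start on the other strand close by did not follow 1 order of strength. Some of these pairs overlap rather than run apart. Of 41 members with a partner start on the other strand within 1 kb whose partner is in the tables, 15 were lower than the partner in WT steady state. These WT values chose the members but not the partners, of which 34 had a mean above 0.5 RPKM. The choice thus shaped this count and the ratios below, which are a description without a test. The median distance between the starts was 111 bases. E130317F20Rik was at 0.194 times the level of Ptbp1, a splicing regulator gene that it overlaps, and B230354K17Rik at 0.443 times that of Cdc5l. 4632427E13Rik, in contrast, was at 19.8 times the level of Rab30, though its RPKM divides by a short intron. 2500002B13Rik was at 3.07 times the level of Sap30. In 4 of the 41 the partner is itself a member, in the pairs 1110019D14Rik with 2610001J05Rik and 1810009A15Rik with 5730408K05Rik.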

How the data were processed

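Bru-seq libraries of WT and EloA null mESCs were taken from 3 tables (steady state, 5 and 10 min after flavopiridol), with 2 libraries per label and table and 12 in all. Another 16 samples (CUT&RUN and ChIP) were not used here. The authors aligned paired reads to mm10 with bowtie2 2.3.4.3, kept unique alignments, separated the strands of the directional libraries, counted whole RefSeq genes with featureCounts 1.6.1 and deposited RPKM values computed with edgeR. Whether the counting used the separated strands, the RefSeq release and the scaling between tables are not given in the sources used here.

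Groups follow the sample titles. Names were matched to RefSeq (GRCm38.p6) by symbol (131 members) or older symbol (11). Reads were recovered from the steps between RPKM values. Over expressed genes with introns, 98.9% came out whole (within 0.05 reads, in at least 11 libraries) with intron length widened by 1 base at both ends, against 1.50% with 37 more bases. The RPKM divisor of these genes was thus their intron length, which does not show where the reads were counted. Library sizes set the depth, and no count test was run.

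limma 3.58.1 (R 4.3.3, trend) was run on log2(RPKM + 0.1) within each table over genes with a mean above 0.5 RPKM under either label, with Benjamini-Hochberg adjustment; fold changes of low genes are understated on this scale. The method was tested on simulated data in which genes of like level shared 1 spread. For 5 min, 7 of 50 genes changed 2-fold were recovered with 4 false calls, and for 10 min 9 of 50 with 8. The fit of 12 libraries used the same values. A fold count needs a ratio of means above 1.5 and no overlap between labels.

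Genes named were the 10 highest, the 5 largest rises and falls per table (no overlap, mean above 0.5 RPKM, at least 20 recovered reads on average), the 5 highest and lowest recovery ratios per time, 3 on each side of the limit, those called in both recovery tables by the fit of 12 libraries, Eloa, and members with a known role. Members, lists and rules were chosen with earlier results of these data known. Garre1, 9330020H09Rik and genes named in pairs or hosts were chosen after their values were seen. The 2 entries of Hjurp were counted as 2 members.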

Additional observations from a re-analysis of the deposited data

Results flagged for a closer look

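The lncRNA 4930502E09Rik, one of the genes just inside the limit, was singled out because its libraries moved in opposite directions at the 2 recovery times. At 5 min it was lower under the EloA null label, at 0.268 and 0.801 RPKM against 1.08 and 0.840 RPKM in WT. At 10 min it was higher, at 0.746 and 0.783 RPKM against 0.622 and 0.434 RPKM, a log2 difference of 0.48. Between 3 and 21 reads lay behind each value. In the limma fit of all 12 libraries the difference between the times was 1.35 on the log2 scale, with an adjusted p of 0.996. That fit takes in the WT steady-state libraries that chose the genes and the library of conflicting labels. Of 130 members tested in this way 0 passed, against 4 of 8362 genes.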

How the results depend on the processing

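The count of members passing limma's adjusted p at 5 min and 10 min stayed at 0 under pseudocount 1, no limit on RPKM, centring, robust variance, removal of the GC trend and each library left out. It was 6 and 5 in the fit of all 12 libraries. Replicate numbers pair the libraries only by number (correlation of deviations 0.101, 0.119 and 0.103 over genes in steady state, at 5 and at 10 min), and with the replicate block the counts were 3 at 5 min and 0 at 10 min. The GC trend, the members off chromosome 14 and the minimum of 20 reads, like the denominators with 1 library, were chosen after seeing the data.

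With a 2-fold limit, members higher and lower without overlap numbered 0 and 1 in steady state, 2 and 4 at 5 min, and 2 and 1 at 10 min. For the 35 members with a WT mean above 5 RPKM they numbered 3 and 1, 2 and 1, and 4 and 0, with a median log2 difference of 0.018 at 5 min and recovery ratios of 1.01 (WT) and 0.972 (EloA null label) at 5 min and 1.56 and 1.59 at 10 min. For the 158 genes chosen by the libraries labelled EloA null, 133 of them shared, 12 were higher in steady state and 11 were higher and 6 lower at 5 min, the median log2 difference at 10 min was 0.13, and the recovery ratio at 5 min under that label was 0.685. Off chromosome 14, 0, 1 and 6 were more than 1.5-fold higher without overlap in steady state, at 5 and at 10 min. With at least 20 reads, 6 were lower at 5 min. Without a limit on RPKM, 5 were lower at 10 min. Centring turned the median log2 difference to -0.041 in steady state and -0.037 at 10 min. Shares over all genes are not given for these settings. The cause of these shifts beyond the smaller or other sets of genes was not tested.

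Leaving out 1 library gave 3 to 6 higher and 3 to 6 lower members in steady state (3 higher without WT replicate 2, and 6 and 5 lower without the first or second library labelled EloA null), 4 to 11 and 7 to 19 at 5 min, and 12 to 14 and 4 to 6 at 10 min (5 lower without WT replicate 2, 6 without the second library labelled EloA null). These counts have no share over all genes beside them, and the rule of no overlap is easier to meet with 1 library in a group. The median log2 difference ran from -0.021 to 0.076, from -0.16 to -0.02 and from 0.043 to 0.12. Leaving out 1 recovery library, the recovery ratios ran from 0.688 to 0.793 (WT) and 0.642 to 0.674 (EloA null label) at 5 min and from 1.12 to 1.31 and 1.22 to 1.27 at 10 min. With 1 steady-state library left out of the denominator they were 0.711 to 0.772 and 0.639 to 0.671 at 5 min, and 1.18 to 1.27 and 1.25 to 1.28 at 10 min. Of the named genes' values under other settings, 207 kept direction and side of the threshold and 13 passed it only under the alternative.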
